A study of Mus musculus with 8 samples.

Results

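The genes described here encode the enzymes and carriers of folate, one-carbon and methylation metabolism. They were chosen by name: a row of the deposited count tables belonged to the set if its gene symbol equalled 1 of 35 listed symbols, and all 35 were found among the 26608 genes listed. Counts came from neural tube of FVB mouse embryos at 8.5 days of gestation, cut by laser from cryosections on either side of closure site 1, the place where the neural folds first meet. Open tissue lay just in front of that site and closed tissue just behind it, and the dams were either diabetic or normal. There were 2 libraries in each of 4 groups: normal open (libraries 09 and 10), normal closed (11 and 12), diabetic open (13 and 14) and diabetic closed (15 and 16). The sources used here do not give how diabetes was brought about, the number of embryos or litters behind each library, or whether an embryo gave both kinds of tissue. All groups were FVB, and the labels name no allele or agent for any of them. Where libraries are not separate embryos, the p-values below measure only a technical spread.

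Folate carries single carbon units between enzymes. In the cytosol the units go into purines, into thymidylate for DNA and into methionine, while mitochondria release them from serine and glycine and export them as formate. Methionine becomes S-adenosylmethionine, the methyl donor of DNA, RNA and histone methylation. The pathway is known in this tissue because folate supplementation lowers the frequency of neural tube defects, and mice that lack some of its enzymes or its main receptor fail to close the neural tube.

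The libraries were made by SOLiD SAGE, which counts 1 short tag per transcript next to a site of the anchoring enzyme near the 3′ end. In SAGE kits of this kind that enzyme cuts at CATG, which is background knowledge and is not stated in the labels. Since a transcript gives 1 tag whatever its length, levels were not divided by length. For each member the tag next to the last CATG was read from 1 reference transcript of GENCODE M21 (assembly GRCm38), as 25 bases with the CATG included. The counts were made on another build, mm9, so these tags show what the method would read from the reference transcripts and are not the deposited tags. All 35 members had such a tag, every one of them in the 3′ UTR. For 24 members all coding transcripts of the annotation's basic set gave the same tag. In 32 members the tag occurred at no CATG site of another gene's transcripts.

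The tags of the 4 members whose levels separated the groups are given first, with CATG in capitals. They lie at chr19:15905137-15905161 (minus strand, Psat1), chr6:83306495-83306519 (minus strand, Mthfd2), chr8:116981817-116981841 (minus strand, Gcsh) and chr2:155059474-155059498 (minus strand, Ahcy) of GRCm38.
Psat1: CATGgaaaacattaaagtcctaagt
Mthfd2: CATGgctctacagaacctcaccagg
Gcsh: CATGtgaaatgattaaagagaaaaa
Ahcy: CATGtgtagcttctacaagtgcaaa

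None of these 4 occurred in transcripts of another gene. The tags of the 2 folate receptors and the proton-coupled carrier, whose counts were absent from a group, also occurred in no other gene. They lie at chr7:101858499-101858523 (minus strand, Folr1), chr7:101840029-101840053 (minus strand, Folr2) and chr11:78471794-78471818 (plus strand, Slc46a1).
Folr1: CATGggacctggccactcttgtgca
Folr2: CATGttgggggttggggtttctaca
Slc46a1: CATGgtactaggtctctgctgtgtt

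The remaining 3 tags were shared with other genes, which matters for members listed at or near 0. The Phgdh tag (chr3:98313311-98313335, minus strand) occurred in transcripts of 10 other genes, the Bhmt tag (chr13:93616825-93616849, minus strand) in those of 16, and the Bhmt2 tag (chr13:93655980-93656004, minus strand) in those of 9. How the authors counted tags that match several genes is not given, so the counts of these 3 members are uncertain.
Phgdh: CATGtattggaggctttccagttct
Bhmt: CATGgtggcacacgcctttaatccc
Bhmt2: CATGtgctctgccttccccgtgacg

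Library totals ran from 5041586 to 16655583 counts, so that 1 count stood for 0.06 to 0.198 CPM, the counts per 1000000 counts of the library. The neural progenitor markers were present: all 13 had a count, and their summed level was 4320 to 5729 CPM in the 8 libraries. Sox2, a neural progenitor factor, was at 30.9 CPM in diabetic open library 13 against 287 to 550 CPM elsewhere, and is named because of that value. The neural sum of library 13, 4508 CPM with all 13 markers counted, lay inside the range of the other libraries. The marker lists of other cell types gave the following sums. The summed level of 15 endothelial genes was 86.5 to 378.6 CPM in diabetic and 40.9 to 78.9 CPM in normal libraries, and 14 of the 15 had a count (Erg had none). For 13 genes of paraxial mesoderm, all with a count, it was 301 to 1974 and 160 to 495 CPM, and for 9 genes of primitive blood, with Hbb-y and Nfe2 at 0, 4.4 to 1010 and 0.3 to 63.3 CPM. Of the 10 heart markers 4 were at 0 (Myh6, Myh7, Nkx2-5 and Tnnt2). Their sum was 109 CPM in diabetic open library 13 alone, 0 to 5.8 CPM in the other diabetic libraries and 0 to 6.2 CPM in normal libraries. The 11 surface ectoderm genes, all with a count, summed to 60.9 to 327.7 and 85.9 to 303.3 CPM, and the 13 endoderm genes, with Apoa4 at 0, to 34.7 to 53.7 and 19.6 to 41.0 CPM. The most abundant gene of each list was Sox11 (neural), Egfl7, Pdgfra, Hba-x, Gata4, Krt18 and Foxa2, in the order given. Of these 7 sums the endothelial one did not overlap between the dams, and all 7 overlapped between the regions. In bulk tissue, fewer cells of a type and less RNA per cell cannot be told apart.

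As a set the members were steady. Their summed level was between 2358 CPM (library 11, normal closed) and 2762 CPM (library 14, diabetic open). Ahcy, Dnmt1 and Mat2a together held 47.2% to 57.5% of the members' counts. Of the 35 members, 20 had a count in every library, 11 were at 0 in some libraries and 4 were at 0 in all, while 43% of all listed genes had no count anywhere. The filter on low counts kept 29 members and removed Aldh1l1, Aldh1l2, Amt, Bhmt, Bhmt2 and Mtr. Of the 29, 4 reached the filter's level of 1.44 CPM in libraries of 1 kind alone: Gcsh (diabetic open), Phgdh (diabetic), Folr2 (normal) and Gldc (closed). Slc46a1 reached it in library 10 (normal open) and library 16 (diabetic closed) alone.

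**Figure D1:**
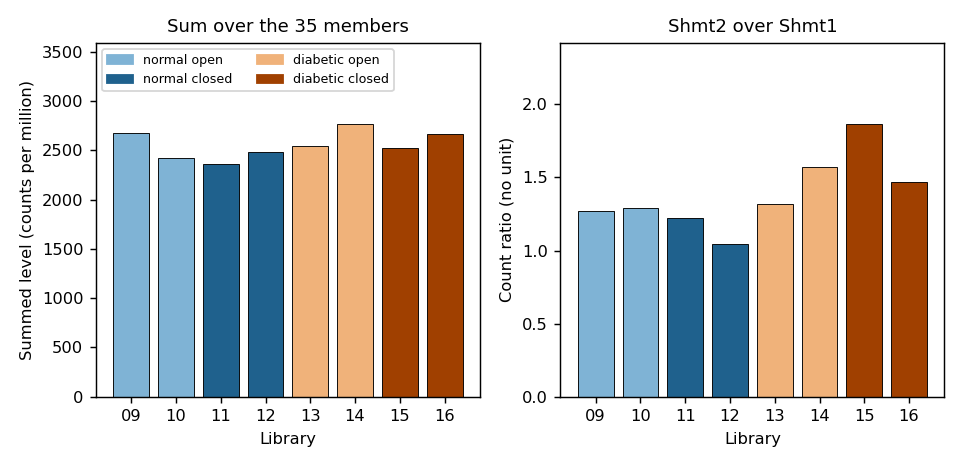
Left, the summed level of the 35 members in each library, in CPM; right, the ratio of Shmt2 to Shmt1 counts in each library; bars are single libraries, coloured by group. The sums lie between 2358 and 2762 CPM, and the ratio is 1.048 to 1.289 in the 4 normal and 1.319 to 1.863 in the 4 diabetic libraries. This pair was picked after all 171 pairs of members with at least 20 counts in every library were looked at. Of those pairs 2.34% did not overlap between the dams, against 4.03% of such pairs over all genes.

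**Figure D2:**
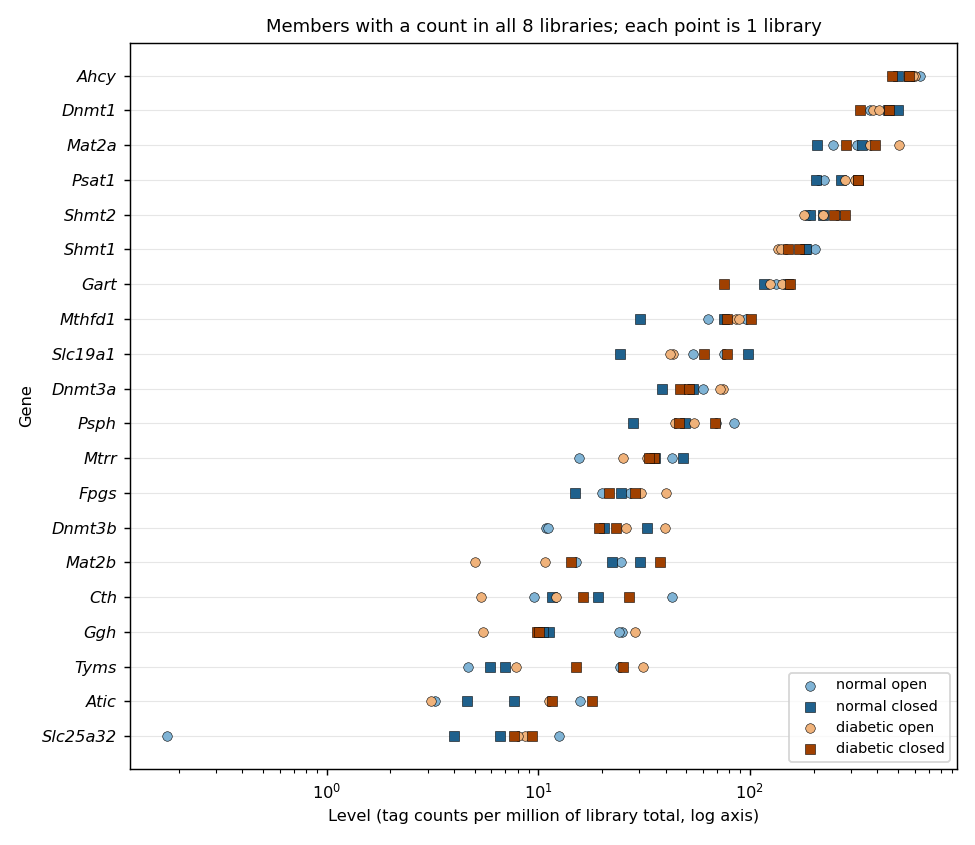
Level of the 20 members with a count in all 8 libraries, in CPM on a log axis; each point is 1 library, coloured by group, with circles for open and squares for closed tissue. The abundant enzymes at the top spread little between libraries, and Slc25a32 at the bottom has 1 library at 0.176 CPM.

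No member passed the test in any of 7 comparisons by edgeR's quasi-likelihood test with Benjamini-Hochberg adjustment over 11779 genes, and neither did any other gene: 0% were called for closed against open tissue, 0% for diabetic against normal dams, and 0% in each of the 4 comparisons within a dam or a region and in the interaction. DESeq2 and limma-voom also called 0 members. Over all genes DESeq2 did call some in every comparison and limma-voom in some comparisons, with the counts given at the end. In some comparisons DESeq2 gave no adjusted p for Folr2, Gcsh or Phgdh, so these were not judged there. At an unadjusted p below 0.05 there were 0 of 29 members for closed against open tissue (3.32% of all genes) and 3 of 29 for diabetic against normal dams (4.55% of all genes), 1 of which was Gcsh. The median log2 fold change of the 29 members was 0.13 for closed against open tissue, where that of all genes tested was 0.07, with 15 members positive and 14 negative. For diabetic against normal dams the members' median was -0.05 and that of all genes 0.04, with 14 positive and 15 negative.

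**Figure D3:**
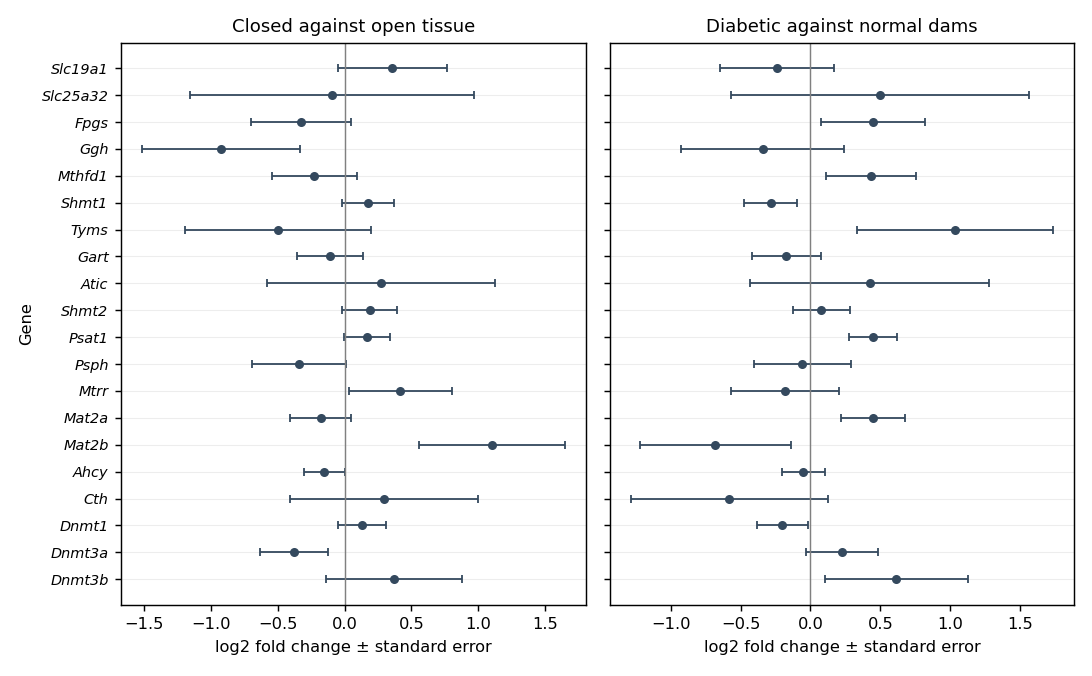
Log2 fold change with its standard error from edgeR for the 20 members with a count in all 8 libraries, closed against open tissue on the left and diabetic against normal dams on the right. By dam, Psat1 is at 0.45 with a narrow bar. Other bars by dam also lie clear of 0, such as those of Mat2a (0.45), Tyms (1.04) and Shmt1 (-0.29). By region, the Ahcy point is at -0.15 with a bar that reaches about 0. Each bar spans 1 standard error to either side, so a bar clear of 0 is no test result.

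The member with the smallest p between the dams belongs to serine synthesis. Psat1 encodes phosphoserine aminotransferase, the middle step from a glycolytic intermediate to serine, which is the main donor of one-carbon units. Psat1 was at 211 and 223 CPM in the normal open libraries, 205 and 268 CPM in the normal closed, 315 and 283 CPM in the diabetic open, and 326 and 324 CPM in the diabetic closed libraries. All 4 diabetic libraries were above all 4 normal ones, in open and in closed tissue alike. With diabetic dams the mean was 312 ± 19.9 CPM (SD, n = 4), and with normal dams it was 227 ± 28.9 CPM (SD, n = 4), which gave a log2 fold change of 0.45 (SE 0.17). The unadjusted p was 0.0242 and the adjusted p 0.999 by edgeR. The log2 difference was 0.45 (SE 0.26) within open tissue and 0.44 (SE 0.26) within closed tissue, and the interaction was -0.01 (SE 0.37). 

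The other enzymes of serine synthesis did not separate the dams. Psph, the phosphatase of the last step, ranged from 28.1 CPM in normal closed library 11 to 83.7 CPM in normal open library 09, and the diabetic libraries (44.2 to 68.2 CPM) lay inside that range. Phgdh, the dehydrogenase of the first step, had 65 counts in diabetic open library 13, 13 in diabetic closed library 15 and 1 in normal closed library 12, and none in the other 5. Its shared tag is given above. Library 14, of the same group as 13, had no Phgdh count, so the 2 libraries of that group differed.

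Mthfd2, the mitochondrial enzyme that passes the carbon of serine towards formate and is abundant in embryos and dividing cells, was also above the normal libraries in every diabetic library. Its level was 8.49 and 6.88 CPM in normal open, 1.78 and 0 CPM in normal closed, 11.1 and 26.3 CPM in diabetic open, and 20.2 and 9.49 CPM in diabetic closed libraries. The margin was narrow, since normal open library 09 and diabetic closed library 16 were 1 CPM apart. Mean levels were 16.8 ± 7.90 CPM for diabetic and 4.29 ± 4.04 CPM for normal dams (SD, n = 4), and the log2 fold change was 2.58 (SE 1.13, unadjusted p = 0.0432, adjusted p = 0.999 by edgeR). Within closed tissue the log2 difference was 4.05 (SE 1.57) and within open tissue 1.26 (SE 1.38), and the interaction did not pass the test (2.79, SE 1.99, adjusted p = 1.00 by edgeR).

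Gcsh encodes the H protein of the glycine cleavage system, which hands the aminomethyl group of glycine from one subunit to the next. It had 53 and 25 counts in the diabetic open libraries (3.18 and 2.98 CPM), 7 and 9 in the diabetic closed libraries (1.39 and 1.26 CPM), 2 counts in normal open library 09 (0.198 CPM) and none in the other 3 normal libraries. Every diabetic library was thus above every normal one, at levels of few counts. Over the arms there were 94 counts of 37240719 with diabetic and 2 of 28164561 with normal dams, a ratio of 35.5 that rests on those 2 counts. Of the 94, 78 came from the diabetic open libraries. Gcsh passed the filter on low counts through the 2 diabetic open libraries alone, so that a member kept this way had to differ between the dams, and its test is not given.

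These 3 members, Psat1, Mthfd2 and Gcsh, were the ones whose diabetic libraries all lay above the normal libraries, 3 of 29 against 2.48% of all genes tested, but Gcsh is among the 29 only through libraries in which it is high, so the count is a description and no support. No member had all diabetic libraries below, which 1.15% of all genes had. The same 3 were found with TMM-scaled library sizes and with DESeq2 size factors. The endothelial sum also did not overlap between the dams, and the part of endothelial or mesodermal cells in the levels of these 3 members was not tested. Library 13 had the highest endothelial and paraxial mesoderm sums, and library 14 the highest primitive blood sum. Gcsh was highest in library 13, Mthfd2 in library 14 and Psat1 in library 15. No link between these sums and levels was tested.

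**Figure D4:**
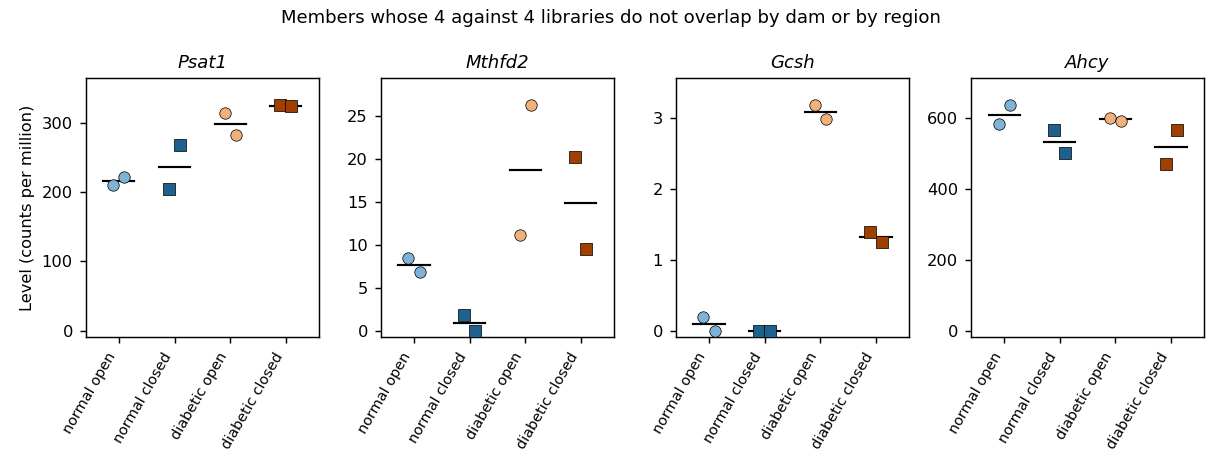
Levels of Psat1, Mthfd2, Gcsh and Ahcy in CPM, by group; each point is 1 library and the bar is the mean of the 2. For the first 3 genes all diabetic libraries lie above all normal ones, and for Ahcy the closed libraries (469 to 566 CPM) lie below the open ones (584 to 635 CPM).

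The other glycine cleavage genes were near the limit of detection. Gldc, the decarboxylase whose loss in mice gives neural tube defects, was at 0.889 and 0.706 CPM in normal open, 0.712 and 6.52 CPM in normal closed, 0 and 1.31 CPM in diabetic open, and 3.77 and 2.23 CPM in diabetic closed libraries. It was highest in library 12, where it had 44 counts, and the groups overlapped. Amt, the aminomethyltransferase that takes the carbon onto folate, had no count in 65405280, which allows up to 0.0459 CPM by counting error. Dld, the dihydrolipoamide dehydrogenase that the glycine cleavage system shares with other mitochondrial complexes, is no member but belongs to the list of other folate genes. It stood at 56.2 to 122 CPM in diabetic and 30.7 to 53.8 CPM in normal libraries, with the groups not overlapping. Its log2 fold change was 0.81 (SE 0.34, unadjusted p = 0.0395, adjusted p = 0.999 by edgeR). Of 66 tested genes of the other pathway lists 36 were higher with diabetic dams, and Dld was chosen as the one with the smallest p among them. Of all genes tested, 2.48% had all diabetic libraries above the normal ones.

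The 2 serine hydroxymethyltransferases, which move a carbon from serine to folate in the cytosol (Shmt1) and in mitochondria (Shmt2), were among the steadier members. Shmt1 was 204 and 148 CPM in normal open, 181 and 185 CPM in normal closed, 136 and 141 CPM in diabetic open, and 152 and 169.8 CPM in diabetic closed libraries. The groups overlapped by dam and by region. Shmt2 was 258 and 191 CPM in normal open, 222 and 193 CPM in normal closed, 179.9 and 221 CPM in diabetic open, and 283 and 249 CPM in diabetic closed libraries, again with overlap. Their coefficients of variation over the 8 libraries were 14.6% and 16.2%. The remaining mitochondrial members were sparse: Mthfd1l, which makes formate, had no count in normal open library 10 and reached 9.26 CPM in normal closed library 11, and Aldh1l2, which oxidises formyl-folate to carbon dioxide, had 21, 7 and 10 counts in libraries 09, 12 and 16 and none elsewhere.

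In the cytosolic branch, Mthfd1, the trifunctional enzyme that interconverts the folate forms, was lowest in normal closed library 11 (30.1 CPM) and 63.2 to 101 CPM in the other 7 libraries. Tyms, which makes thymidylate for DNA, was 4.64 and 24.3 CPM in normal open, 6.95 and 5.92 CPM in normal closed, 31.3 and 7.88 CPM in diabetic open, and 15.1 and 25.3 CPM in diabetic closed libraries. The 2 libraries of a group differed widely in both kinds of open tissue. Aldh1l1, the cytosolic counterpart of Aldh1l2 and a marker of radial glia and astrocytes at later stages, had no count in any library. For purines, Gart, a trifunctional enzyme, was 151 and 134 CPM in normal open, 116 and 152 CPM in normal closed, 125 and 143 CPM in diabetic open, and 75.8 and 155 CPM in diabetic closed libraries. Its lowest and highest levels thus fell in 1 group. Atic, the last enzyme of that pathway, was 3.10 to 17.9 CPM, with both ends in libraries of diabetic dams.

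Among the genes of folate entry, 3 had no count in a whole group. The same held for Aldh1l2, Bhmt, Gcsh and Phgdh among the other members with a count. The share of all genes at 0 in a whole group was not computed, so this is a description only. Folr1 encodes the high-affinity folate receptor alpha, needed for neural tube closure in mice. It had 10 and 27 counts in the normal open, 10 and 18 in the normal closed, 20 and 25 in the diabetic closed, and 0 and 0 in the diabetic open libraries. Both diabetic open libraries were therefore without a count, and all 6 others had one, at 0.987 to 4.76 CPM. Those 2 zeros allow up to 0.18 CPM in library 13 and 0.358 CPM in library 14. With 3 counts over the diabetic open group as the floor, the observed Folr1 level was 30.8-fold above that floor in diabetic closed and 19.5-fold above it in normal open tissue. Such limits cover counting error of the zeros only, and not that of the counts in the other group. These limits rest on single libraries: without library 13 they were 10.3-fold and 6.5-fold, without library 14 they were 20.5-fold and 13-fold, and against normal open tissue the limit was 8.2-fold without library 10 and 39.7-fold without library 09. The unadjusted p was 0.0221 for closed against open tissue of diabetic dams and 0.0258 for diabetic against normal dams in open tissue (adjusted p = 1.00 and 0.651 by edgeR), and the interaction did not pass the test (unadjusted p = 0.0361, adjusted p = 1.00 by edgeR). Folr1 was chosen for this detail after its values were seen.

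Some genes had many counts in 1 library of a group and none in the other. Of 9490 genes with at least 50 counts in library 13, 11.9% had no count in library 14, and the figure was 3.23% in the other direction. Among members, Phgdh had 65 counts in 13 and 0 in 14, while Cbs had 57 in 14 and 0 in 13. Folr1 was absent from both. Whether counts lost from a library had a part in the Folr1 zeros was not tested. Folr1 had at most 27 counts in a library, so the tally at 50 counts does not reach it. The share of all genes at 0 in both diabetic open libraries was not computed. Libraries 13 and 14 had a count for 11557 and 10071 genes, against 12308 and 12924 in diabetic closed libraries 15 and 16, which had smaller totals. The normal libraries had 9920 to 11204.

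Folr2, the receptor beta that macrophages and placenta express, was likewise at 0 in both diabetic open libraries, but with at most 17 counts elsewhere. It had 4 and 17 counts in normal open, 9 and 1 in normal closed and 7 and 0 in diabetic closed libraries. Slc46a1, the proton-coupled folate carrier, had 11 and 78 counts in normal open, 6 and 18 in diabetic closed, and none in either the diabetic open or the normal closed libraries. Its observed normal open level was 47-fold above the same floor of the diabetic open group, which again covers counting error of the zeros only. Of the 89 counts on the higher side, 78 came from library 10 alone. Without that library the limit was 9.1-fold, without library 13 it was 15.7-fold, without library 14 it was 31.3-fold, and without library 09 it was 114.8-fold. Slc46a1 reached the filter's level in library 10 (normal open) and library 16 (diabetic closed) alone. It was thus tested only through groups in which it is high, and its interaction test is not given. Slc46a1 and Folr2 were chosen for this detail after their values were seen.

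The reduced folate carrier Slc19a1, the most abundant member of this role, was 75.1 and 54.0 CPM in normal open, 24.4 and 98.5 CPM in normal closed, 43.3 and 41.8 CPM in diabetic open, and 60.7 and 77.9 CPM in diabetic closed libraries. The diabetic open libraries were the lowest but for normal closed library 11, and the groups overlapped. Slc25a32, the mitochondrial folate carrier, was 4.00 to 12.5 CPM in 7 libraries and had 1 count (0.176 CPM) in normal open library 10.

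**Figure D5:**
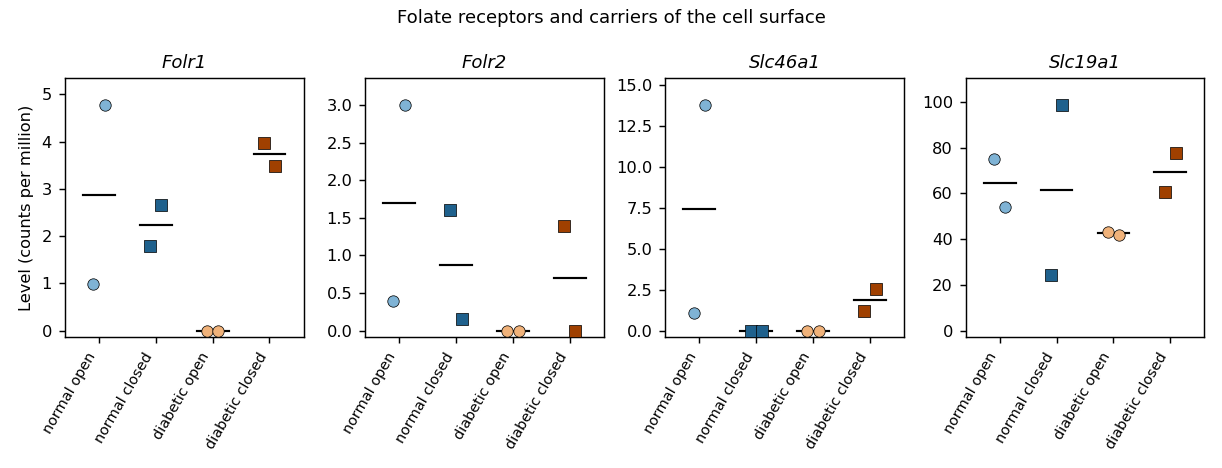
Levels of Folr1, Folr2, Slc46a1 and Slc19a1 in CPM, by group; each point is 1 library and the bar is the mean of the 2. The diabetic open libraries are at 0 for the first 3 genes and at 41.8 and 43.3 CPM for Slc19a1.

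Once inside, folate is held by a glutamate chain. Fpgs, which adds the chain, was 20.04 and 27.2 CPM in normal open, 14.96 and 24.7 CPM in normal closed, 30.4 and 40.2 CPM in diabetic open, and 28.6 and 21.6 CPM in diabetic closed libraries. It was highest in the diabetic open pair, with the arms overlapping. Ggh, the hydrolase that removes the chain, was 9.92 to 11.2 CPM in the 4 closed libraries. In 3 of the open libraries it was 24.2 to 28.5 CPM, and in diabetic open library 13 it was 5.46 CPM, below all closed libraries. Over all 8 libraries its log2 fold change for closed against open tissue was -0.93 (SE 0.59, adjusted p = 1.00 by edgeR), and library 13 was the single one that made the regions overlap.

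The methionine cycle held the most abundant member and the single one that separated the regions. Ahcy splits S-adenosylhomocysteine, the product and inhibitor of methyl transfer. It was 584 and 635 CPM in normal open, 600.0 and 593 CPM in diabetic open, 565 and 502 CPM in normal closed, and 469 and 566 CPM in diabetic closed libraries. All 4 closed libraries were below all 4 open ones, and the gap between the nearest pair (566 and 584 CPM) was small beside the spread within the closed groups. Closed tissue averaged 526 ± 48.1 CPM (SD, n = 4) and open tissue 603 ± 22.7 CPM (SD, n = 4), and the log2 fold change was -0.15 (SE 0.15, unadjusted p = 0.336, adjusted p = 1.00 by edgeR). Ahcy was 1 of 29 members with all closed libraries below, against 1.07% of all genes tested. No member had all closed libraries above, which 1.68% of all genes had. Its coefficient of variation over the 8 libraries, 9.58%, was the smallest of the 20 members counted in every library.

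Mat2a, the catalytic subunit that makes S-adenosylmethionine outside the liver, was 321 and 248 CPM in normal open, 339 and 208 CPM in normal closed, 371 and 507 CPM in diabetic open, and 390.4 and 284 CPM in diabetic closed libraries. Library 14 was highest, and diabetic and normal libraries overlapped. Mat2b, its regulatory subunit, was 10.7 and 5.01 CPM in the diabetic open libraries and 14.2 to 37.5 CPM in the other 6. Mtrr, which reactivates methionine synthase, was 15.5 to 48.1 CPM. Mtr, methionine synthase itself, had no count in any library although its partner Mtrr did, with the same limit of 0.0459 CPM as Amt and Aldh1l1. Absence of tags leaves expression of Mtr unresolved, because its tag in these libraries is not known.

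Betaine can replace folate as the methyl donor to homocysteine through Bhmt, an enzyme best known from liver and kidney. Bhmt had 36 counts in normal open library 10 and none in the other 7, and Bhmt2 had none. Their tags, shared with other genes, are given above. Homocysteine leaves the cycle through Cbs and Cth, the enzymes of transsulfuration. Cbs was 0 in normal closed library 11 and diabetic open library 13 and 1.39 to 13.9 CPM elsewhere. Cth, the more abundant of the pair, was 43.0 and 9.53 CPM in normal open, 11.6 and 19.1 CPM in normal closed, 12.1 and 5.37 CPM in diabetic open, and 26.8 and 16.3 CPM in diabetic closed libraries. The 2 normal open libraries were nearly as far apart as any other 2.

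Of the DNA methyltransferases, Dnmt1, which copies methylation at replication, was 464 and 372 CPM in normal open, 451 and 503 CPM in normal closed, 383 and 407 CPM in diabetic open, and 331 and 453 CPM in diabetic closed libraries. These levels overlapped by dam and by region. Dnmt3a, which sets methylation anew, was 38.6 to 53.9 CPM behind the closure site and 51.2 to 74.7 CPM before it, and normal open library 10 was the single open library inside the closed range. Dnmt3b, the de novo enzyme that prevails in the early embryo, was 10.9 and 11.1 CPM in normal open, 20.5 and 32.7 CPM in normal closed, 26.1 and 39.5 CPM in diabetic open, and 23.4 and 19.4 CPM in diabetic closed libraries. The 2 normal open libraries were the lowest of the 8. Within open tissue the log2 difference between diabetic and normal dams was 1.56 (SE 0.61, unadjusted p = 0.0284, adjusted p = 0.651 by edgeR), and the interaction was -1.90 (SE 0.85, unadjusted p = 0.05, adjusted p = 1.00 by edgeR).

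Within single regions or dams, the members with an unadjusted p below 0.05 numbered 1 of 29 when the regions of normal dams were compared (Slc46a1, 3.4% of all genes), 3 of 29 for the regions of diabetic dams (Folr1, Slc46a1 and Mat2b, 2.78%), 3 of 29 for dams in open tissue (Folr1, Slc46a1 and Dnmt3b, 7.22%), 1 of 29 for dams in closed tissue (Mthfd2, 1.17%) and 2 of 29 for the interaction (Folr1 and Slc46a1, 3.74%). These comparisons share libraries, so the repeated names are not separate observations. Slc46a1 is among the 29 only through libraries 10 and 16, in which it is high, so the counts that include it are a description and no support.

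Genes next to the members in metabolism were taken from 6 further lists, with 81 of 82 genes matched by symbol (Kmt2a was not) and 66 tested. The lists cover other folate enzymes, cobalamin and the methyl cycle, polyamines, nucleotide synthesis, DNA demethylation and protein methyltransferases. None passed at an adjusted p of 0.05 by edgeR in any of the 7 comparisons. At an unadjusted p below 0.05 there were 3 of 66 for closed against open tissue (3.32% of all genes), 1 of 66 for diabetic against normal dams (4.55%) and 8 of 66 for the dams in open tissue (7.22%), and 0 to 4 of 66 in the other comparisons. For closed against open tissue 40 were positive and 26 negative, with a median log2 fold change of 0.09, and for diabetic against normal dams 36 were positive and 30 negative, with a median of 0.07. Odc1, the first enzyme of polyamine synthesis, was 1075 to 1169 CPM in the closed libraries and 1303 to 1854 CPM in the open ones, without overlap (log2 fold change -0.36, SE 0.16, unadjusted p = 0.0474, adjusted p = 1.00 by edgeR). Rrm1, the large subunit of ribonucleotide reductase, was 24.6 to 56.9 CPM in the closed libraries and 2.47 to 28.6 CPM in the open ones, with overlap through library 13 (log2 fold change 1.74, SE 0.62, unadjusted p = 0.0167, adjusted p = 1.00 by edgeR). Prmt5, which spends S-adenosylmethionine on arginine methylation of histones and splicing proteins, was 440.2 to 524 CPM in diabetic and 546 to 661 CPM in normal libraries, without overlap (log2 fold change -0.34, SE 0.16, unadjusted p = 0.0562, adjusted p = 0.999 by edgeR). Of all genes tested, 1.07% had all closed libraries below the open ones and 1.15% all diabetic libraries below the normal ones.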

How the data were processed

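SOLiD SAGE libraries from 7 ng of total RNA each were counted by the authors, who deposited raw tag counts per gene symbol, 1 file per library. Per the submitters' processing notes the genome was mm9. Aligner, counting program, annotation, strand use and the treatment of tags matching several genes are not stated, so overlapping genes and near-identical copies are uncertain. Groups and library numbers came from the sample titles. Library totals were 5041586 to 16655583 counts.

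Levels are CPM of the library total. Tests used R 4.3.3, edgeR 4.0.16 (quasi-likelihood, TMM factors 0.9751 to 1.0405, filterByExpr with minimum count 10 and minimum total 15), DESeq2 1.42.0 and limma 3.58.1. The comparisons by region and by dam came from 1 fit with both as additive terms, and the other contrasts from a fit of the 4 groups. Adjusted p-values cover all 11779 genes kept, with 0.05 as the threshold, and standard errors are those implied by the F statistic. The scripts were tested on simulated data. Tags came from the APPRIS principal coding transcript, the longest where several ranked alike.

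Members, lists and comparisons were chosen with earlier results of these data known. By rule, a member is given library by library when its 4 against 4 levels do not overlap by region or dam, when its unadjusted p is below 0.05 there, or when it is the most abundant of its role, and the rest by range. Folr1, Folr2, Slc46a1, Phgdh, Bhmt, Tyms, Mat2a, Mat2b, Ggh and Dnmt3b got more detail because of their values. From the 6 further lists, the gene with the smallest p in each direction is named, and from each marker list the most abundant gene. Sox2 was added because of its value. Alternatives were other scalings, tests, filter and model, and leaving out each library.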

Additional observations from a re-analysis of the deposited data

Results flagged for a closer look

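A library far from the other 3 of its arm (closed, open, diabetic or normal) was found in 17 of 122 arms examined. In 8 of the 17 the other 3 libraries were at 0, so that any count sets its library apart. Chance flags about 1 in 20 groups of continuous values, a rate that does not hold for such sparse counts, so the number 17 is not read against it. An arm pools 2 groups, and several of the same libraries recur because each belongs to 2 arms. Most of these members have few counts.

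Normal open library 10 was the highest in 6 cases. Folr2 was 2.999 CPM there against at most 0.395 CPM in the other open libraries, Slc46a1 was 13.8 CPM among the open and among the normal libraries (1.09 CPM or less in the others), and Bhmt was 6.35 CPM among both, with 0 in the others. Tyms was 24.3 CPM in library 10 and 4.64 to 6.95 CPM in the other normal libraries.

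Phgdh was 3.90 CPM in diabetic open library 13 (0 in the other open libraries), 2.58 CPM in diabetic closed library 15 (at most 0.148 CPM in the other closed libraries) and 0.148 CPM, a single count, in normal closed library 12 (0 in the other normal libraries). Folr2 was 1.39 CPM in library 15 and 0 in the other diabetic libraries. Normal closed library 12 was also highest for Gldc, at 6.52 CPM against 0.706 to 0.889 CPM in the other normal libraries, and for Mtrr, at 48.1 CPM against 33.2 to 35.6 CPM in the other closed libraries.

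Mthfd1l was 9.26 CPM in normal closed library 11 against 1.18 to 2.23 CPM in the other closed libraries, and 9.07 CPM in diabetic open library 14 against 1.62 to 2.23 CPM in the other diabetic libraries. Aldh1l2 was 2.07 CPM in library 09 (normal open) and 1.40 CPM in library 16 (diabetic closed), with 0 in the rest of the open and of the diabetic libraries. Gcsh was 0.198 CPM, 2 counts, in library 09 and 0 in the other normal libraries. No member's interaction of region and dam passed the test.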

How the results depend on the processing

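No member was called in any of the 7 comparisons under any of the alternatives run, so 0 members held throughout, and the 4 members whose groups do not overlap were the same under TMM and DESeq2 size factors. The log2 fold changes given for the comparisons over both regions or both dams kept their sign and stayed short of the threshold in 14 alternatives: Psat1 ran from 0.38 to 0.53, Mthfd2 from 1.89 to 3.18, Ggh from -1.28 to -0.40, Ahcy from -0.21 to -0.11, Dld from 0.50 to 1.04, Prmt5 from -0.41 to -0.28, Odc1 from -0.42 to -0.24 and Rrm1 from 1.40 to 2.38. In 13 alternatives the dam differences within a region also kept their sign and were not called: Psat1 ran from 0.37 to 0.50 in open and 0.28 to 0.67 in closed tissue, Mthfd2 from 0.49 to 1.75 and 3.06 to 10.02, and Dnmt3b from 1.21 to 1.83 in open tissue. The Mthfd2 value of 10.02 came without library 11, when normal closed tissue has no count, and is no bound. Interactions ran from -2.15 to -1.49 for Dnmt3b and 1.80 to 8.77 for Mthfd2, and that of Psat1, near 0, ran from -0.15 to 0.23 and changed sign without library 09 (0.02), 10 (0.03), 12 (0.23), 13 (0.09), 15 (0.01) or 16 (0.01). All 310 recomputed mean levels moved by less than their spread. Leaving out a single library cannot move a mean that far, so for those alternatives the outcome was fixed in advance and is no support.

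Counts over all genes did move, from 0 by edgeR. In the order closed against open over both dams, diabetic against normal over both regions, closed against open in normal and in diabetic dams, dams in open and in closed tissue, and the interaction, DESeq2 called 9, 37, 27, 46, 195, 2 and 17, and the absence of a filter on low counts gave 29, 89, 22, 41, 138, 11 and 23. Limma-voom called 1 gene each for region in diabetic dams, dams in open tissue and the interaction. Leaving out 1 library gave 0 to 3, 0 to 2, 0 to 18, 0 to 21, 0 to 61, 0 to 3 and 0 to 9 genes, with the 18 without library 09 and the 21, 61 and 9 without library 14; a group's remaining library is then assumed to vary like the others. The cause was not tested. No paired analysis was possible because the sources do not say which libraries, if any, share embryos or litters. The tests of region would ignore such a pairing. With 2 libraries a group, a member with few counts cannot be told from a lost tag, and floors cover counting error of the zeros only.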

Other observations

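Ratios between members within a library do not depend on the library's scaling. Over the 19 members with at least 20 counts in every library there were 171 pairs, and the ratio did not overlap between dams for 4 of them (2.34%) and between regions for 2 (1.17%). Over all 20425636 pairs of the 6392 genes with that many counts the shares were 4.03% and 2.68%, so such pairs were not more frequent among the members. These pairs were found by looking at all of them, so they are given as a description with no test.

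Psat1 took part in 5 of those 6 pairs. Its ratio to Dnmt1 was 0.695 to 0.984 in diabetic and 0.453 to 0.6 in normal libraries. The ratios of Shmt1 and of Gart to Psat1 were 0.433 to 0.523 and 0.233 to 0.504 with diabetic, and 0.665 to 0.968 and 0.565 to 0.72 with normal dams. By region, the ratio of Fpgs to Psat1 was 0.067 to 0.092 in closed and 0.095 to 0.142 in open tissue, and that of Psat1 to Dnmt3a 4.981 to 6.958 and 3.495 to 4.355.

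The other pair was the mitochondrial and the cytosolic serine hydroxymethyltransferase, neither of which separated the dams alone. Shmt2 over Shmt1 was 1.268 and 1.289 in normal open, 1.224 and 1.048 in normal closed, 1.319 and 1.575 in diabetic open, and 1.863 and 1.468 in diabetic closed libraries. The counts behind these ratios were 765 to 2996. The nearest values of the 2 dams, 1.289 in library 10 and 1.319 in library 13, differed by less than the spread within either dam.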
